A study of Mus musculus with 121 samples.

Results

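The genes of fatty acid and triglyceride synthesis were followed through liver and gonadal adipose tissue of mice labelled by Pepd genotype. The labels are wild type, heterozygote and knockout, and Pepd is the gene of the dipeptidase prolidase. The members were chosen by symbol, from knowledge of the pathway, and looked up by Ensembl identifier in both count tables. All 33 were found among the 25759 genes of the tables. Of these, 32 had enough counts to be tested in every comparison; Agpat2, an acyltransferase of triglyceride assembly, was listed at 0 in all 120 libraries. The gene body of Agpat2 overlaps Egfl7 and Gm20532 on the opposite strand, and the sources used here do not give whether counting used strand.

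Bulk RNA sequencing was done on C57BL/6 mice of 3 Pepd genotypes: wild type (WT), heterozygote (HET) and knockout (KO). From 8 weeks of age they ate 1 of 4 diets for 18 weeks: standard chow with 10% of calories from lipid, a high-fat diet (HFD) labelled 45%, a Control diet or an Alios diet, whose composition the labels do not give. All 4 diets have liver libraries. Chow livers came from 5 WT, 8 HET and 5 KO mice and HFD livers from 8, 11 and 9 in that order, Control livers from 5, 4 and 1, and Alios livers from 6, 5 and 8. Gonadal fat has libraries for 4 WT, 8 HET and 5 KO mice fed chow and, in that order, 8, 11 and 9 fed HFD. How the Pepd allele was made, and in which cells it is lost, is not given in the sources used here.

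New fatty acids are made in the cytosol from acetyl-CoA. Citrate leaves the mitochondrion through Slc25a1, Acly splits it into acetyl-CoA, acetyl-CoA carboxylase (Acaca, Acacb) makes malonyl-CoA, and fatty acid synthase (Fasn) builds palmitate with NADPH from sources such as malic enzyme (Me1). Elovl enzymes lengthen the chain, the Scd desaturases make monounsaturated fatty acids, and Fads1, Fads2, Elovl2 and Elovl5 together make long polyunsaturated fatty acids. Gpam, Agpat, lipin (Lpin) and Dgat enzymes then join acyl chains to glycerol to form triglyceride. Srebf1 and Mlxipl (ChREBP) encode transcription factors that insulin, sterols and carbohydrate act on, and polyunsaturated fatty acids are known to restrain both.

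Promoter windows from RefSeq (build GRCm38.p6, 250 bases before to 50 bases after the start) were found for 28 of the 33 members. The motif CCAAT, bound by NF-Y, a partner of SREBP, was sought on both strands and was present in 20 of 28 members (71.4%), against 41.1% of 27025 genes with a window. CACGTG, the E-box read by USF and related factors, was sought in the same way and was present in 6 of 28 (21.4%), against 8.09% of genes. The last motif sought, TCACNCCAC (N for any base), was present in 1 of 28 (3.57%), Mlxipl, against 1.44% of genes. Windows of 4 members named in the accounts of liver and adipose tissue are printed 5′ to 3′ in the direction of transcription. These windows show CCAAT (or ATTGG on the other strand) and CACGTG in capitals. They lie at chr11:120824498-120824797 (Fasn, minus strand), chr7:97417501-97417800 (Thrsp, minus), chr9:77917115-77917414 (Elovl5, plus) and chr19:10101454-10101753 (Fads2, minus).
Fasn: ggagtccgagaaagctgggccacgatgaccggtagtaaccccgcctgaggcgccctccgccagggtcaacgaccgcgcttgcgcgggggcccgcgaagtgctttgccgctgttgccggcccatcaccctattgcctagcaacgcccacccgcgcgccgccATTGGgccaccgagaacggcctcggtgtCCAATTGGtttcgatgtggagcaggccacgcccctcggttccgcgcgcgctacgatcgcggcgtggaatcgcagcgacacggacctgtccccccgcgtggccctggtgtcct
Thrsp: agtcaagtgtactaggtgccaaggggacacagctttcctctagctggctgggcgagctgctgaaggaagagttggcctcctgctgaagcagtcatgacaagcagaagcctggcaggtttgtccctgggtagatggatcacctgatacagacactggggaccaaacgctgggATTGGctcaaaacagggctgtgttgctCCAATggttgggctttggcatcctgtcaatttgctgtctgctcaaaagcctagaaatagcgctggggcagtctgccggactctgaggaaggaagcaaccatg
Elovl5: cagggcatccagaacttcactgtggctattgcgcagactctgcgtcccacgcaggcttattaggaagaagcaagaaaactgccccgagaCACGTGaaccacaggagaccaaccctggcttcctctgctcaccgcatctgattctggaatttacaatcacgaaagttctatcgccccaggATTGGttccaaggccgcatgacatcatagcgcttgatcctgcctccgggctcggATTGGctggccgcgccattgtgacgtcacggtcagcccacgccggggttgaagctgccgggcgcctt
Fads2: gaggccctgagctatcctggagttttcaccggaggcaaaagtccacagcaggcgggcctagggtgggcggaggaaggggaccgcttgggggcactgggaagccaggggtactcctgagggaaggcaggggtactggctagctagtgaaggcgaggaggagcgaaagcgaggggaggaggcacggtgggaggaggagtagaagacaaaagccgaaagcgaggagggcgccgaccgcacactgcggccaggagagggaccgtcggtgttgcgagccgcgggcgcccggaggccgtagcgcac
The Fasn window held 3 CCAAT matches, 2 of them overlapping, and those of Thrsp and Elovl5 held 2 each. Elovl5 also held the single CACGTG match among these windows. Fads2 held neither CCAAT nor CACGTG, which says only that these letters are not in its window. Acaca and Elovl2, named early in the same accounts, also held neither motif, and their windows are not printed. The printed windows are thus not typical of the members by design.

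Library totals ranged from 1027087 to 8854246 counts in liver, except for 1 Alios KO library (KO 8) at 42692, and from 4236655 to 6699887 in adipose tissue. Values are counts scaled to library size (CPM), and RPKM, per kilobase of exon, where levels of different genes are compared. Pepd averaged 44.0 CPM in chow WT liver, 22.1 in HET and 1.65 in KO, and 83.8, 57.9 and 17.8 CPM in chow adipose tissue. One mouse labelled HET had Pepd at the level of KO libraries in both tissues, so the HET comparisons on HFD were repeated without it. Hepatocyte markers (7 of the 8 listed were found) summed to at least 66293 CPM in every liver library, and none of 8 adipocyte markers was at 0 in an adipose library. The lowest hepatocyte sums were in chow KO livers, KO 5 at 66293 and KO 2 at 69759 CPM, against 100816 to 134164 in chow WT. These livers also held 742 and 901 CPM of macrophage markers, in that order. The part of this makeup in the chow KO values was not tested. The labels do not say whether mice shared litters. Each p-value judges a difference against the spread between these mice, pooled over the groups fitted together, or within mouse between tissues.

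In WT mice, liver and adipose tissue carried different versions of the pathway. The 12 WT mice with both tissues were compared within mouse. Levels in this comparison were scaled over both tissues together, and CPM elsewhere over each tissue alone. The same library can thus have different CPM in other sections. Of 32 members, 18 were higher in liver and 8 in adipose tissue by edgeR at an adjusted p under 0.05; 81% of all 12262 genes tested were called in this comparison, 37.4% higher and 43.7% lower in liver, so a call by itself says little. The median member was 0.74 higher in liver on the log2 scale, against a median of -0.09 over all genes. Scd1 (chromosome 19, 44394455 to 44407879), the main liver delta-9 desaturase, was the most abundant member in both tissues, at 4727 RPKM in liver and 2922 in adipose tissue.

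After Scd1, the liver ranking held Elovl5 at 408 RPKM, Thrsp at 381, Fads2 at 242, Fads1 at 239, Elovl2 at 219 and Dgat2 at 212. Adipose tissue ranked Dgat2 second at 785 RPKM, then Pnpla3 at 259, Fasn at 230 and Thrsp at 212. The polyunsaturated branch thus stood near the top in liver, and the last enzymes of triglyceride assembly and remodelling in adipose tissue.

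Scd2 (chromosome 19, 44293674 to 44306864), the neighbouring gene of a second delta-9 desaturase, ran from 6.62 to 26.1 CPM in liver and from 244 to 1138 in adipose tissue. The ranges did not meet, and adipose tissue was 42.4-fold higher (log2 -5.40, SE 0.29, edgeR adjusted p = 4.1e-10). Pnpla3, a lipase and acyltransferase of lipid droplets, lay between 1.89 and 44.4 CPM in liver and between 191 and 854 in adipose tissue, a 25.3-fold difference without overlap. Dgat1 and Dgat2, which add the third acyl chain, were 4.43-fold and 3.59-fold higher in adipose tissue, in 12 of 12 mice each. Agpat1, which adds the second, was 4.53-fold higher there, and Fasn was 1.86-fold higher in 9 of 12 mice.

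The lipins, phosphatidate phosphatases, divided between the tissues. Lpin2 was 23.4-fold higher in liver in 12 of 12 mice, from 423 to 841 CPM against 15.5 to 106. Lpin1 was 1.78-fold higher in adipose tissue in 11 of 12 mice, and Lpin3 1.71-fold in 12 of 12. Gpam, which starts triglyceride assembly, was 5.42-fold higher in liver.

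On the liver side stood the polyunsaturated branch, ChREBP and liver pyruvate kinase. Elovl5 was 13.9-fold, Fads1 12.4-fold and Fads2 17.7-fold higher in liver, each in 12 of 12 mice. Mlxipl was 7.40-fold and Elovl6, which lengthens palmitate, 7.41-fold higher. Elovl2 and Pklr had mean levels of 869 and 502 CPM in liver and were at 0 in some adipose libraries, with fitted log2 differences of 8.74 and 8.30, which were 5.45 and 5.51 without the mouse as a term.

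Both genes were highest in adipose libraries that held markers of hepatocytes or of epididymis, whose part was not tested. CPM in this paragraph were scaled over adipose libraries alone, unlike the liver means above. The summed hepatocyte markers of adipose HFD WT 6 were 48125 CPM, against 8.87 CPM in the lowest HFD WT library, and Elovl2 was 240 CPM there against 0 to 20.8 CPM in the other 7. Pklr was 178 CPM in that library against 0 to 18.5 in the other 7. Chow WT 2, also among the mice compared, came next for Elovl2 at 58.0 CPM, with Pklr at 16.4, and held 41.8 CPM of hepatocyte and 14414 CPM of epididymis markers. Without the mice whose adipose libraries passed 1000 CPM of hepatocyte markers, the differences were 9.22 for Elovl2, 8.84 for Pklr and 4.31 for Fads2, and 25 members were called. Me1, Thrsp, Elovl1, Tecr, Scd1 and Mogat1 were the 6 members not called between the tissues.

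**Figure D1:**
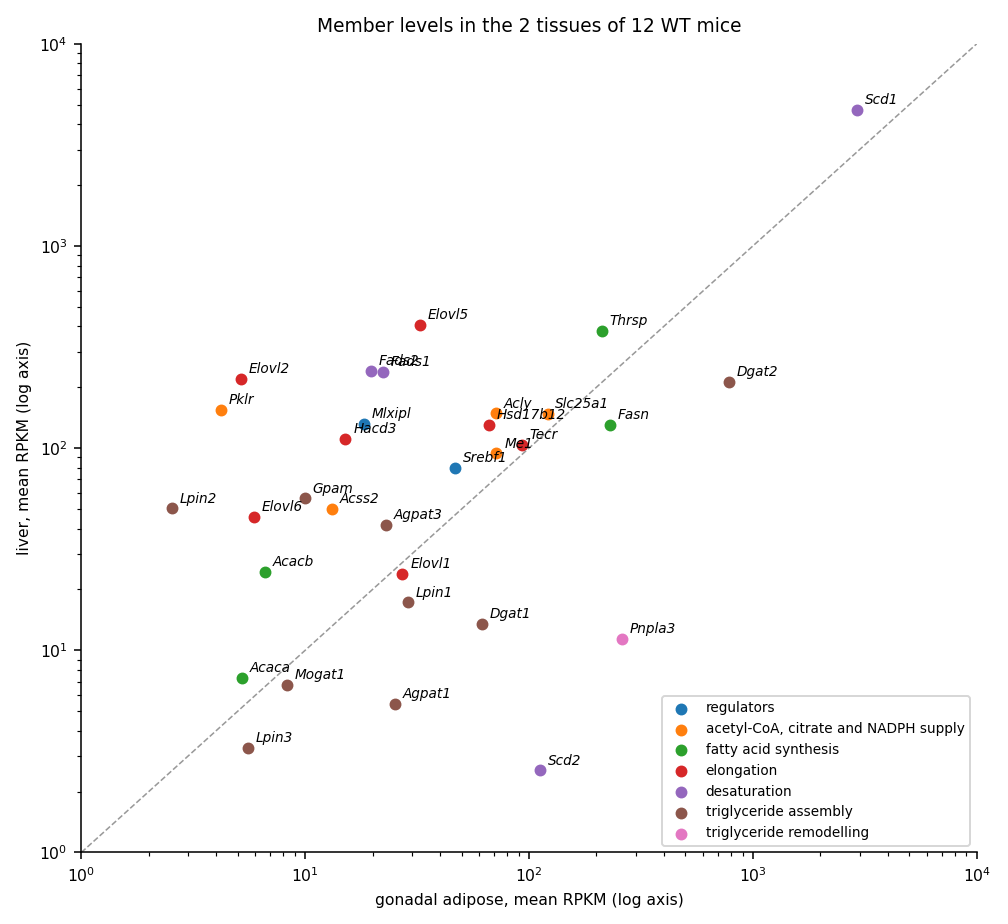
Mean RPKM of each member in liver (vertical, log axis) against gonadal adipose tissue (horizontal, log axis) of the 12 WT mice with both tissues; colours give the role and the dashed line equal levels. Scd1 lies at the top in both tissues, Elovl2, Pklr and Lpin2 far above the line, and Scd2 and Pnpla3 far below it.

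HFD raised the polyunsaturated branch and lowered Mlxipl in the liver of all 3 genotypes. Fads2, Fads1, Elovl2 and Elovl5 were higher and Mlxipl was lower on HFD than on chow in WT, in HET and in KO mice, and these 5 members were the only ones called the same way in each. In WT liver these 5 were all the calls among 32 members; 1.87% of 11064 genes were called, 1.21% higher and 0.66% lower. In HET liver 6 members rose and 7 fell, with 14.2% of all genes called, 6.97% higher and 7.26% lower. In KO liver 10 rose and 1 fell, with 10.7% of all genes called, 4.51% higher and 6.19% lower. The medians over the 32 members were 0.03 in WT, -0.12 in HET and 0.54 in KO, and those over all genes lay between -0.02 and 0.00. In bulk tissue, fewer cells of a type and less RNA per cell cannot be told apart.

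Fads2 (chromosome 19, 10062765 to 10101746), the delta-6 desaturase, was at 289, 484, 238, 208 and 306.3 CPM in the 5 chow WT livers. On HFD the WT livers ran from 604 to 952 with a median of 716. Every HFD library lay above every chow library, and the difference was 1.29 on the log2 scale (SE 0.25, edgeR adjusted p = 0.0038). In HET liver Fads2 went from a chow median of 318 CPM (146 to 388) to 757 (425 to 977), a log2 change of 1.26 (SE 0.20), again without overlap. KO livers held 321, 265, 200.03, 278 and 153 CPM on chow and 217 to 1004 on HFD, with a median of 581. There 8 of 9 HFD libraries lay above all chow libraries; the change was 1.38 (SE 0.25).

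Elovl2, which elongates chains of 20 and 22 carbons, stood at 493.3, 554.9, 438, 290 and 474 CPM in chow WT liver. On HFD it ran from 574 to 1079, median 726, with all 8 above the chow libraries (log2 0.74, SE 0.19). Its changes were 0.66 (SE 0.15) in HET, where 8 of 11 HFD libraries lay above every chow library, and 1.01 (SE 0.19) in KO, where 7 of 9 did. Chow KO livers held 577, 308, 340.6, 466.5 and 224 CPM of Elovl2 against 434 to 995 on HFD, median 800.

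Fads1, the delta-5 desaturase, was at 584, 773, 524.9, 467 and 575 CPM in chow WT liver and at 775 to 1183, median 1008, on HFD, without overlap (log2 0.79, SE 0.21). Elovl5 was more uneven. Chow WT livers held 320, 1068, 465.9, 404 and 707 CPM, and HFD WT livers 833 to 1727 with a median of 1362. WT 2 on chow was above 3 of the 8 HFD libraries, and the change was 1.17 (SE 0.32, edgeR adjusted p = 0.045). In KO liver Elovl5 rose from 628, 357.8, 262, 387 and 241 CPM to a median of 955 (321 to 1671), a change of 1.40 (SE 0.32).

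Mlxipl went the other way. Chow WT livers held 594, 775, 748, 967 and 803 CPM and HFD WT livers 332 to 606, median 493.4, so that 7 of 8 HFD libraries lay below all chow libraries. The log2 changes were -0.72 (SE 0.17) in WT, -0.87 (SE 0.14) in HET and -0.52 (SE 0.16) in KO. Srebf1 was not called in any genotype, at 0.22 (SE 0.24) in WT, -0.29 (SE 0.19) in HET and 0.33 (SE 0.24) in KO.

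In HET liver 7 members were called lower on HFD, from acetyl-CoA supply, fatty acid synthesis and elongation, with Mlxipl. Acss2, which makes acetyl-CoA from acetate, went from a median of 502.9 CPM (316 to 755) to 188 (119 to 447), with 10 of 11 HFD libraries below every chow library (log2 -1.31, SE 0.30, edgeR adjusted p = 0.0025). Thrsp, a lipogenic protein of the cytosol, fell by 1.38 (SE 0.38), Elovl6 fell by 0.97, Acly fell by 0.79 and Acaca fell by 0.57 on the log2 scale. Tecr, the last reductase of elongation, fell by 0.42. Acly was called in 3 of the 7 alternatives run for it. Fasn itself, at -0.85 (SE 0.35), and Scd1, at -0.57 (SE 0.29), did not pass the threshold. Agpat3, which makes phosphatidic acid, rose from a median of 173 CPM (150 to 198) to 273 (225 to 289) without overlap, by 0.61 (SE 0.08). Mogat1, a monoacylglycerol acyltransferase, rose by 1.42 (SE 0.40) at levels of 15.7 CPM or less.

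In KO liver none of these steps was called lower on HFD. Elovl6 was 1.34 higher (SE 0.41) and Me1 1.23 higher (SE 0.38), and Acly, at 0.99 (SE 0.35), Fasn, at 1.04 (SE 0.44), and Thrsp, at 0.78 (SE 0.47), did not pass. Among the triglyceride genes Gpam had the smallest adjusted p, going from 153, 152, 59.9, 143 and 34.8 CPM on chow to a median of 423 (76.2 to 860), with 8 of 9 HFD libraries above all chow libraries (log2 1.83, SE 0.42, edgeR adjusted p = 0.0039). Agpat3, Hsd17b12 and Mogat1 were also higher, by 0.36, 0.49 and 2.24. In the same comparison 5 of 6 macrophage markers were lower on HFD, their sum being 195 to 901 CPM on chow and 186 to 381 on HFD, and their part in these changes was not tested. Hsd17b12, the ketoreductase of elongation, was at 223, 183, 100.2, 215 and 157 CPM on chow and at 173 to 337, median 264, on HFD.

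The counts of calls rested on single chow libraries in the smaller groups. In WT liver, 2, 2, 1 and 2 members stayed called without chow WT 1, 3, 4 or 5, and in KO liver 5, 4 and 5 were called without chow KO 2, 3 or 5. Fads2 stayed called in all 3 genotypes under each alternative run. Of the other shared members, Fads1 was called in 4 of 7 alternatives in HET liver and Elovl5 in 6 of 7. Leaving out 9 liver libraries with over 100 CPM of skeletal muscle markers left 2 calls in WT, 9 in HET and 4 in KO. With that low-Pepd HET mouse left out, 12 of the 13 HET calls remained.

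**Figure D2:**
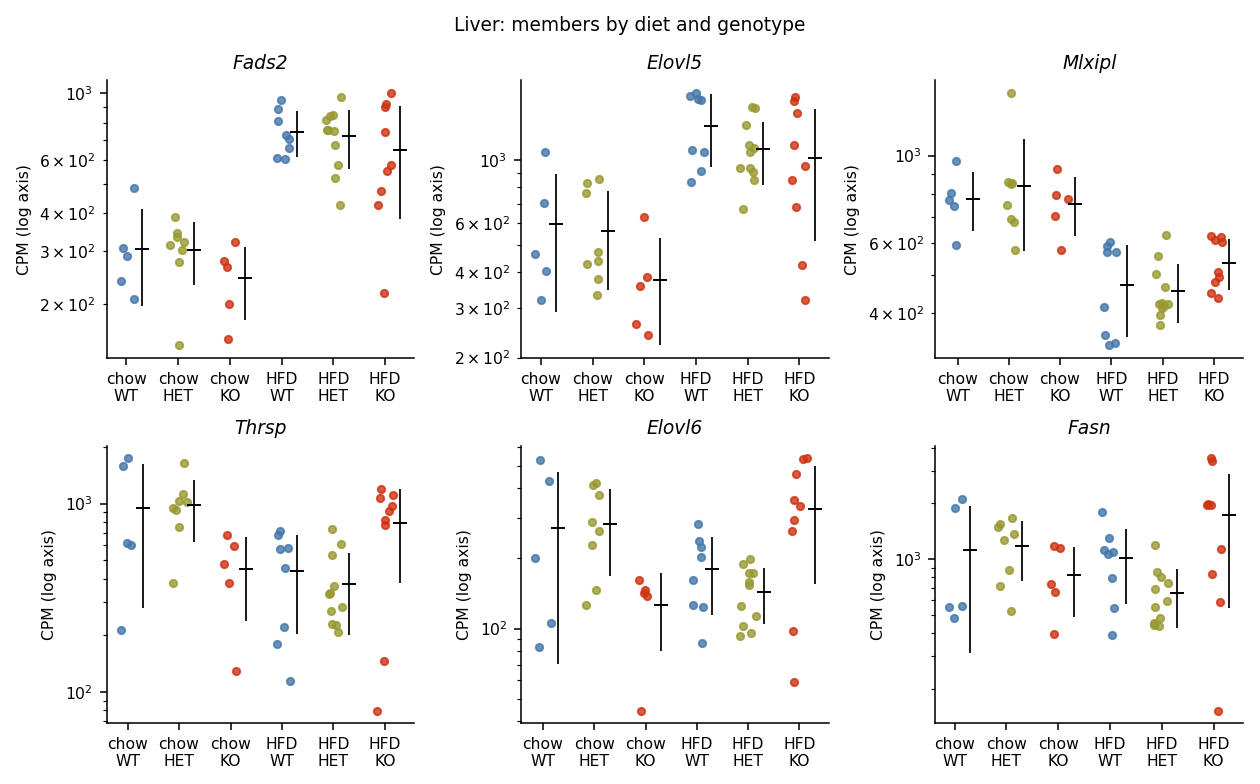
CPM (log axis) of 6 members in each liver library by diet and genotype; points are mice and the black marks give the mean and SD. Fads2 and Elovl5 sit higher and Mlxipl lower on HFD in all 3 genotypes, while Thrsp, Elovl6 and Fasn sit low in HFD HET mice and span a wide range in HFD KO mice.

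In adipose tissue most members called on HFD were lower in HET mice, and those called in KO mice were higher. In HET mice 15 members were lower and 1 was higher on HFD, with 34.4% of 14536 genes called, 15.6% higher and 18.8% lower. In KO mice 9 were higher and 0 lower, with 35.5% of all genes called and 15% called higher. In WT mice 2 were lower and 1 higher, with 4.57% of all genes called, 1.6% higher and 2.97% lower. No member was called the same way in all 3 genotypes, and 2, Fasn and Acss2, were called lower in HET and higher in KO mice. Medians over the 32 members were -0.57 in HET, 0.11 in KO and -0.12 in WT, against -0.04, -0.08 and -0.02 over all genes.

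In HET adipose tissue members of every role but desaturation fell. All 4 genes of the synthesis step fell: Acaca, Thrsp, Fasn and Acacb. Acaca (chromosome 11, 84129672 to 84401651), the cytosolic carboxylase that commits acetyl-CoA to fatty acids, had a median of 232 CPM on chow (151 to 377) and 64.7 on HFD (53.9 to 89.5). The groups did not overlap, and the fall was 3.73-fold (log2 -1.90, SE 0.22, edgeR adjusted p = 6.0e-07). Thrsp went from 1556 CPM (867 to 2007) to 256 (191 to 707), a 4.87-fold fall without overlap (SE 0.37 on the log2 scale). Fasn (chromosome 11, 120805846 to 120824547) went from 6949 (2941 to 13608) to 1900 (1290 to 3469), a 3.51-fold fall, with 9 of 11 HFD libraries below all chow libraries. Acacb, the mitochondrial carboxylase, fell by 0.87.

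Of the supply genes, Acly went from a median of 870 CPM (294 to 1265) to 351 (256 to 544) and 1 chow library, the lowest, overlapped most of the HFD range; the change was -1.18 (SE 0.21). Acss2 fell by 1.00. Both regulators fell. Mlxipl went from 178 CPM (128 to 214) to 93.9 (67.6 to 113) without overlap (log2 -0.91, SE 0.19), and Srebf1 fell by 0.61 (SE 0.16). Elovl6 fell by 1.18, and no desaturase passed the threshold: Scd1 was at -0.70 (SE 0.32) and Scd2 at -0.59 (SE 0.30).

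Triglyceride assembly fell in part. Mogat1 went from 30.3 CPM (18.0 to 49.2) to 8.37 (3.89 to 20.3), a 3.64-fold fall with 10 of 11 HFD libraries below all chow libraries. Gpam, Dgat1, Agpat3 and Agpat1 fell by 0.77, 0.54, 0.47 and 0.38. Dgat2, at -0.71 (SE 0.29), was not called, and Lpin2 rose by 0.60 (SE 0.22). Pnpla3 went from 875 CPM (618 to 1102) to 375 (271 to 607), a log2 change of -1.15.

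These shifts came with other cell markers. The summed adipocyte markers ran from 21137 to 55830 CPM in chow HET and from 15998 to 37252 in HFD HET adipose tissue, and 4 of 8 were lower at the same threshold. All 6 macrophage markers were higher on HFD, their sum being 844 to 2905 CPM on chow and 3206 to 7681 on HFD. The part of cell makeup in the members' changes was not tested. Of the 16 calls, 13 held under every alternative run for this comparison, all but Acss2, Dgat1 and Lpin2.

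In KO adipose tissue 9 members were called higher on HFD than on chow. Hsd17b12 was at 116, 160, 215, 50.7 and 92.5 CPM on chow and at 217 to 391.3, median 259, on HFD, with no overlap (log2 1.12, SE 0.21, edgeR adjusted p = 6.4e-05). Scd2 was at 604, 223, 418, 126 and 123 CPM on chow and at 561 to 1312, median 892, on HFD, where 6 of 9 libraries lay above all chow libraries (log2 1.51, SE 0.38). Me1, a source of NADPH, was at 107, 286, 410, 36.1 and 47.8 CPM on chow against 300.8 to 838, median 413, on HFD (log2 1.47, SE 0.36).

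KO 4 and KO 5 were the lowest chow KO libraries for 7 of these 9 members, all but Elovl1 and Lpin3. Acss2 was at 52.2, 131, 158, 28.3 and 33.8 CPM on chow and 130.0 to 445, median 166, on HFD, a change of 1.39 (SE 0.36). Slc25a1, the citrate carrier, was at 144, 332, 401, 111 and 142 CPM on chow and 272 to 544.6, median 373.98, on HFD (log2 0.75, SE 0.21). Dgat2 was at 950, 2024, 3496, 215 and 476 CPM on chow and 1382 to 5042, median 3180, on HFD (log2 1.12, SE 0.36). For Slc25a1 and Dgat2, KO 2 and KO 3 on chow lay within the HFD range, and only 2 of 9 HFD libraries lay above all chow libraries. Fasn, Elovl1 and Lpin3 were higher by 1.13, 0.34 and 0.36.

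The chow KO libraries differed in the summed level of adipocyte markers. The summed adipocyte markers of chow KO 1 to 5 were 13132, 48786, 43481, 8261 and 15511 CPM, against 24743 to 42223 in the 4 chow WT libraries and 16966 to 40093 in HFD KO. KO 1 also held 10862 CPM of epididymis markers, and KO 5 held 10812 CPM of macrophage markers. Without KO 1 and KO 4, the libraries under 15000 CPM of adipocyte markers, 3 members were called in KO mice, 2 of them among the 9. Hsd17b12 (0.83) and Scd2 (1.75) were those 2, and each stayed called in every alternative run. Fasn was then 0.68 (edgeR adjusted p = 0.27). KO 5 stayed in that fit, although its adipocyte marker sum was below those of every chow WT and HFD KO library.

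WT adipose tissue had few calls. Acaca was at 181, 108, 263 and 212 CPM on chow and at 59.1 to 115, median 78.1, on HFD, with 6 of 8 HFD libraries below all chow libraries (log2 -1.18, SE 0.28, edgeR adjusted p = 0.022). Agpat1 was at 197, 107, 105 and 117 CPM on chow and 71.3 to 103 on HFD, without overlap (log2 -0.59, SE 0.14). Lpin2 was at 26.01, 29.3, 22.3 and 20.8 CPM on chow and 22.1 to 147 on HFD (log2 1.04, SE 0.30), its highest value being in WT 6, the library of 48125 CPM of hepatocyte markers. No call was left without chow WT 2 or without the libraries of over 1000 CPM of hepatocyte or of epididymis markers, and 1 was left without chow WT 4 and 2 without chow WT 5.

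**Figure D3:**
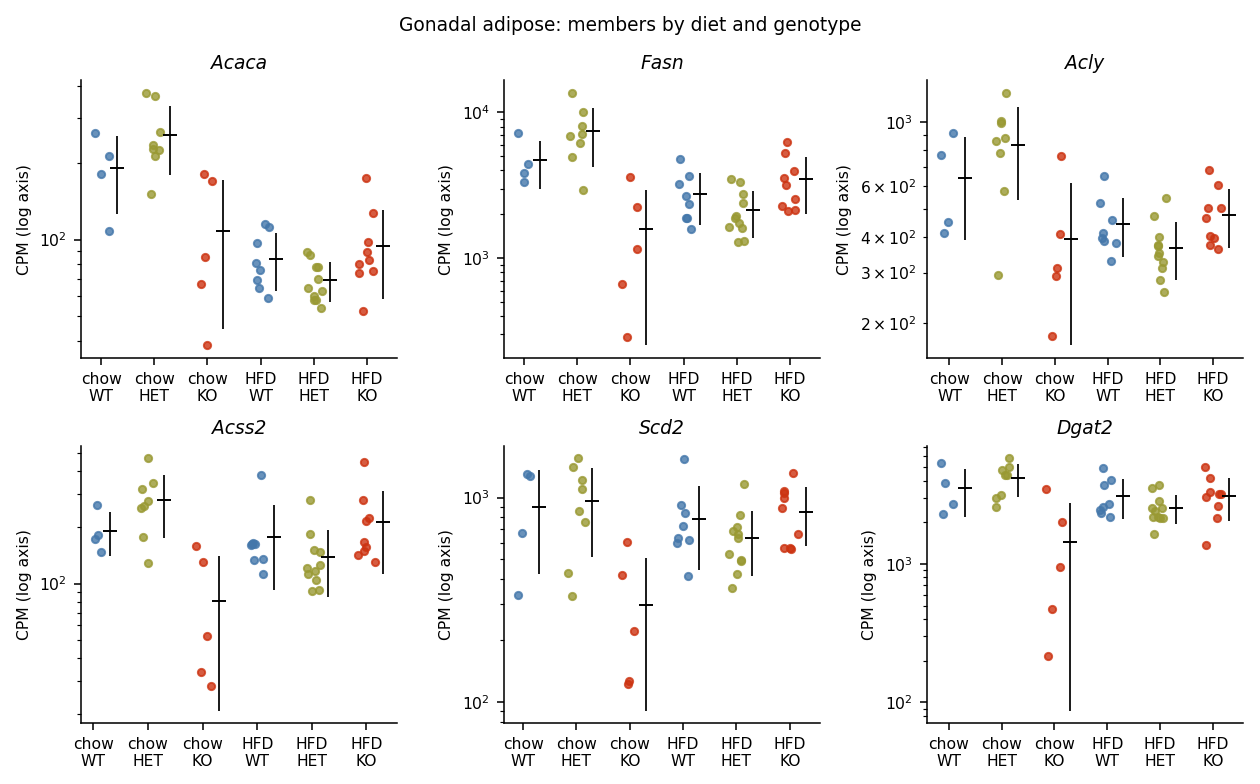
CPM (log axis) of 6 members in each gonadal adipose library by diet and genotype; points are mice and the black marks give the mean and SD. Acaca and Fasn are lower on HFD in HET mice, and chow KO mice reach the lowest value for each of the 6 genes, 288 CPM for Fasn.

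**Figure D4:**
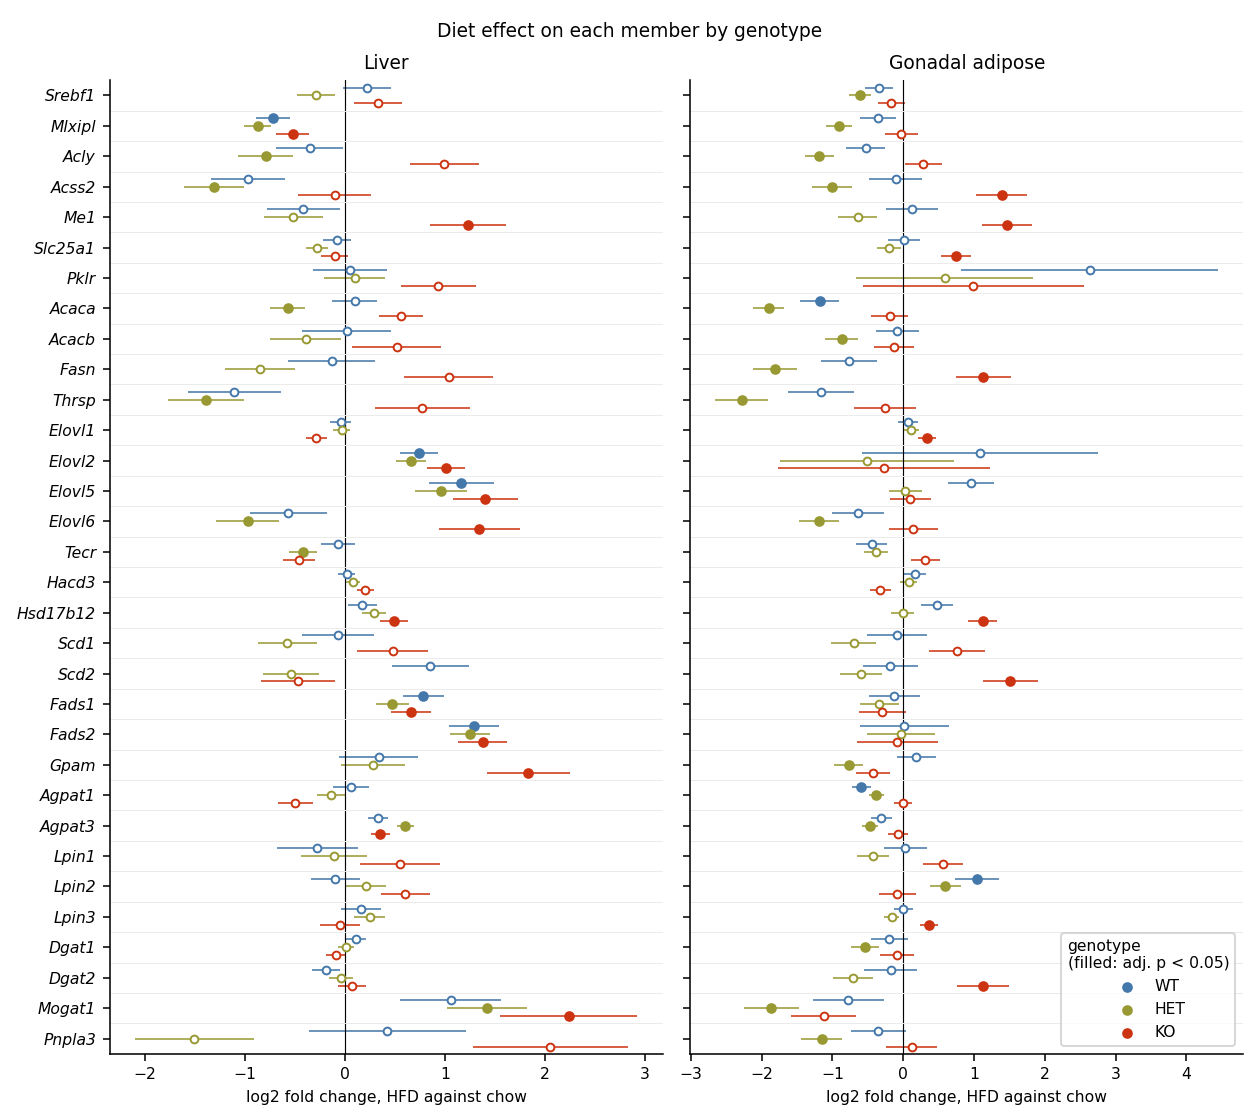
Log2 fold change between HFD and chow (horizontal) of the 32 tested members in WT, HET and KO mice, in liver (left) and gonadal adipose tissue (right); bars are standard errors and filled points passed an adjusted p of 0.05. In liver Mlxipl is left of 0 and Fads2, Fads1, Elovl2 and Elovl5 right of it in all genotypes; in adipose tissue the HET points lie mostly left and the called KO points right.

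The difference between the diet effects in KO and HET mice, a comparison added after the single effects were seen, was then tested in one model. In liver, 6 members had a diet effect that was higher in KO than in HET mice and 0 a lower one, with 2.8% of all genes called and 0.822% called higher. These were Elovl6 (log2 2.31, SE 0.51), Acly (1.78, SE 0.44), Acaca (1.13, SE 0.28), Pnpla3 (3.56, SE 0.97), Me1 (1.74, SE 0.48) and Thrsp (2.16, SE 0.62), each between an edgeR adjusted p of 0.012 and 0.046. They belong to palmitate synthesis, its supply and its first elongation, with the remodelling enzyme Pnpla3; none belongs to the polyunsaturated branch.

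The KO medians of these 6 genes were lower on chow and higher on HFD than the HET medians. Elovl6 had medians of 274 CPM in chow HET (126 to 423) and 154 in HFD HET (92.6 to 199), while chow KO livers held 147, 162, 44.4, 138 and 142 CPM and HFD KO livers 59.2 to 539, median 337. Acly medians were 645 and 378 CPM in HET on chow and HFD, and in KO the values were 591.1, 479, 418, 390 and 307 CPM on chow against a median of 871 (199 to 1636) on HFD. Thrsp medians were 983 and 330 CPM in HET, while KO livers went from 378, 679, 129, 478 and 592.4 CPM to a median of 908 (79.7 to 1196). For Fads2 the difference of diet effects was 0.12 (SE 0.30), and no gene of the polyunsaturated branch passed the test.

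Me1 and Acaca had the same form. Me1 medians in HET were 236 CPM on chow (124 to 400) and 166.5 on HFD (113 to 252), against 180, 127, 39.0, 184 and 94.4 CPM in chow KO and a median of 336 (58.0 to 490) in HFD KO. Acaca medians in HET were 106 CPM on chow (73.6 to 145) and 70.3 on HFD (43.4 to 103), against 95.5, 89.0, 67.9, 95.7 and 75.0 CPM in chow KO and a median of 134 (55.7 to 208) in HFD KO. Pnpla3 was low and spread widely: 2.63, 26.8, 13.7, 2.60 and 6.19 CPM in chow KO and 1.16 to 108 in HFD KO, against 3.79 to 69.6 and 1.64 to 19.2 in HET. The HFD KO ranges contained those of HFD HET for 5 of the 6 members, all but Acaca. In this contrast 4 of 6 macrophage markers were called lower; their part was not tested. None of the 6 members was called without chow KO 2 or without the liver libraries of over 100 CPM of skeletal muscle markers, 2 were called without chow KO 3, and 1 without chow KO 5.

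In adipose tissue, 16 members had a higher diet effect in KO than in HET mice and 0 a lower one, with 26.5% of all genes called and 12.2% called higher. The median difference over the 32 members was 0.74, against -0.04 over all genes. Fasn led at 2.94 (SE 0.51, edgeR adjusted p = 0.00010), then Acss2 at 2.40 (SE 0.46), Acaca at 1.71 (SE 0.35), Me1 at 2.11 (SE 0.45), Scd2 at 2.10 (SE 0.48) and Hsd17b12 at 1.13 (SE 0.26). Fasn medians in HET were 6949 CPM on chow and 1900 on HFD, while the 5 chow KO libraries held 1151, 2242, 3578, 288 and 671 CPM and HFD KO libraries 2109 to 6261, median 3170. Acss2 medians in HET were 268 and 121 CPM; all 5 chow KO values, from 28.3 to 158, were below that chow median. Scd2 medians in HET were 981 CPM on chow and 637 on HFD.

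The other 10 were Acly, Dgat2, Slc25a1, Thrsp, Lpin3, Elovl6, Mlxipl, Scd1, Lpin1 and Pnpla3, between 0.52 and 2.03. Every role had at least 1 of these 16 genes. Without chow KO 1 and KO 4, low in adipocyte markers, 8 of the 16 remained, with Fasn at 2.496, and 10 remained without the libraries of over 1000 CPM of hepatocyte markers. In this contrast 2 of 8 adipocyte markers were also called higher and 4 of 6 macrophage markers lower. Leaving out chow KO 4 left 10 members called and KO 5 left 11. Without the HET mouse with Pepd at the KO level, 14 remained here, with Lpin1 and Pnpla3 lost, and 6 in liver. Fasn, Acss2, Acaca, Acly, Me1, Scd2 and Hsd17b12 stayed called in every alternative run. The differences between HFD and chow KO effects against WT, which use fewer chow mice, called 2 members: Fasn (1.90, SE 0.56) and Scd2 (1.70, SE 0.53), with 6.33% of all genes called and 1.67% called higher. Neither stayed called without chow KO 4, KO 5 or WT 5 or without KO 1 and KO 4 together, while 11, 5 and 4 members were called without KO 3, KO 2 or WT 4 and 1 without WT 2.

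On chow, KO adipose tissue carried less RNA of 4 members than WT. Fasn, Scd2, Dgat2 and Acss2 were lower and 0 members higher among 32, with 15% of all genes called and 6.14% called lower. The median over the members was -0.64, against -0.03 over all genes. Fasn was at 3835, 3333, 4427 and 7169 CPM in WT 2 to 5 and at the 5 KO values given above, of which only KO 3 reached the WT range. The difference was 2.96-fold (log2 -1.56, SE 0.45, edgeR adjusted p = 0.017). Scd2 was at 1301, 671, 334 and 1273 CPM in WT, and KO 1 and KO 3 lay within that range (log2 -1.58, SE 0.43).

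Dgat2 was at 2711, 3836, 2280 and 5325 CPM in WT, with 4 of 5 KO libraries below them all (log2 -1.30, SE 0.42). Acss2 was at 181, 173, 147 and 262 CPM in WT, with 4 of 5 KO libraries below (log2 -1.24, SE 0.41). Omitting any 1 of KO 4, KO 5 and WT 5 left 0 members called, while omitting KO 3 gave 13, KO 2 gave 9 and WT 4 gave 7. Of the cell markers, 1 of 8 adipocyte markers was lower (Lep, at -1.87), with a list median of -0.60, and 1 of 6 macrophage markers was higher (C1qa, at 1.55). Without KO 1 and KO 4, Fasn was at -1.12 (edgeR adjusted p = 0.15), Dgat2 at -0.82, Acss2 at -0.82 and Scd2 at -1.81 (edgeR adjusted p = 0.027). Without the libraries of over 1000 CPM of epididymis markers Scd2 alone was called, at -1.80. A fit of these 2 groups alone called 0.

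On HFD, no member differed between KO and WT adipose tissue by edgeR or DESeq2, with 0.0344% of all genes called, and 5 members had an unadjusted p under 0.05. The smallest belonged to Elovl5, at 94.7 to 146 CPM in KO (median 107) and 92.1 to 685 in WT (median 113). Its log2 difference of -0.77 (SE 0.25) had an edgeR adjusted p of 0.29, and the value of 685 came from WT 6. Lpin2 was at 30.4 to 42.0 CPM in KO (median 34.4) and 22.1 to 147 in WT (median 39.8), its highest also from WT 6. Gpam was at 25.5 to 92.1 CPM in KO (median 77.5) and 59.2 to 118 in WT (median 96.1). The ranges overlapped for all 3.

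Few members were called between KO and WT liver. On chow 1 of 32 members was called, with 3.4% of all genes called and 0.931% called lower: Hacd3, a dehydratase of elongation, at 170, 169, 152, 185 and 201 CPM in KO and 259, 248, 193, 222 and 217 in WT. KO 5 alone reached the WT range, and the difference was 1.27-fold (log2 -0.35, SE 0.09, edgeR adjusted p = 0.028). It was not called without KO 2 or 3 or WT 1 or 2, and 2, 4 and 2 members were called without KO 1, KO 4 or WT 4. DESeq2 called 3 members. The member median was -0.28, against 0.01 over all genes, and 9 members had an unadjusted p under 0.05. Of 6 macrophage markers, 5 were higher in chow KO liver, their sum being 195 to 901 CPM against 146 to 345.99 in chow WT; their part in these values was not tested.

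On HFD 0 members were called between KO and WT liver by edgeR, with 1.72% of all genes called; 9 had an unadjusted p under 0.05, and DESeq2 called 1, Tecr. Tecr ran from 84.3 to 153 CPM in KO (median 129) and from 97.5 to 248 in WT (median 191), a log2 difference of -0.47 (SE 0.14, edgeR adjusted p = 0.075). Agpat3 ran from 181 to 267 CPM in KO and 218 to 309 in WT, with medians of 225 and 269. Pnpla3 ran from 1.16 to 108 CPM in KO and 1.51 to 26.9 in WT, with medians of 31.6 and 10.5. The KO group was uneven: Fasn was at 152 CPM in KO 2 and 587.7 in KO 7 and between 831 and 3503 in the other 7.

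The difference of the 2 KO effects in liver, HFD minus chow, called 0 members by edgeR and 1 by DESeq2 (Elovl6), with 0.145% of all genes called; 8 had an unadjusted p under 0.05. Elovl6 was at 202, 530, 106, 83.4 and 431 CPM in chow WT liver and at 86.5 to 281, median 182, in HFD WT liver. Its difference of effects was 1.91 (SE 0.55, edgeR adjusted p = 0.080). Chow WT livers fell into high and low values for the palmitate genes. Fasn was at 1895 and 2103 CPM in WT 2 and WT 5 and at 549, 484 and 559 in WT 1, 3 and 4, and Thrsp, Elovl6 and Me1 were also highest in WT 2 and WT 5.

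No member passed the threshold between HET and WT mice in 6 comparisons, by edgeR or DESeq2. In liver, members with an unadjusted p under 0.05 numbered 2 on chow (0% of all genes called), 3 on HFD (0.00904%), 8 on Control (0.00862%) and 1 on Alios (0.00862%). In adipose tissue they numbered 0 on chow (0% of all genes called) and 4 on HFD (0.00688%). Fasn in chow adipose tissue had a median of 6949 CPM in HET mice and a range of 3333 to 7169 in WT mice, a log2 difference of 0.67 (SE 0.42). Agpat3 in chow liver was at 150 to 198 CPM in HET, median 173, and 186, 233, 217, 234 and 197 in WT (log2 -0.28, SE 0.10). Tecr in HFD liver was at 106 to 159 CPM in HET, median 131, beside the WT values above (log2 -0.43, SE 0.14).

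Between the Alios and Control diets, sequenced in liver alone, 1 member passed the test in 1 genotype. In WT mice 0 of 32 members were called by edgeR or DESeq2, with 0% of all 11595 genes called, and 5 had an unadjusted p under 0.05. Dgat2 was at 541, 603, 372, 686 and 737 CPM on Control and 305.9 to 479.5, median 375.7, on Alios (log2 -0.59, SE 0.16, edgeR adjusted p = 0.37). Srebf1 was at 391.2, 463, 520, 568.8 and 475 CPM on Control and 147 to 399, median 300.2, on Alios (log2 -0.71, SE 0.21). Elovl5 was at 1154, 1462, 937, 886 and 718 CPM on Control and 1184 to 2017, median 1704, on Alios (log2 0.67, SE 0.23). Alios lay mostly below Control for Dgat2 and Srebf1 and mostly above it for Elovl5, without passing the test.

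In HET liver Alios called Dgat2 alone, with 0.19% of all genes called and 0.0517% called lower. Dgat2 was at 773, 735, 656 and 650 CPM on Control and 522, 402, 266, 325 and 490 on Alios, without overlap (1.75-fold lower, log2 -0.81, SE 0.17, edgeR adjusted p = 0.047). It was no longer called without Alios HET 2, 3, 4 or 5 or any 1 of the 4 Control HET libraries. DESeq2 called 5 members there, Dgat2 among them. Between KO and WT on Alios 0 members were called by edgeR or DESeq2, with 0.224% of all genes called and 6 at an unadjusted p under 0.05. Mlxipl was at 434 to 801 CPM in KO, median 603, and 311.9 to 577 in WT, median 422 (log2 0.48, SE 0.17). Pklr was at 371 to 699 CPM in KO, median 480.8, and 121 to 491.5 in WT, median 316 (log2 0.71, SE 0.31). Scd2 was at 0 to 18.4 CPM in KO, the 0 being the shallow KO 8, and at 11.2 to 41.3 in WT (log2 -0.97, SE 0.38). Without that library Mlxipl was at 0.51 and 0 members were called.

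A mean z-score summarised the 32 members in each mouse, each gene scaled over all libraries of its tissue. Chow HET adipose tissue stood highest among the adipose groups (0.60 ± 0.28, SD, n = 8), with chow WT at 0.31 ± 0.34 (n = 4) and chow KO lowest at -0.66 ± 0.97 (n = 5). The chow KO mice ran from -2.07 in KO 4 and -1.16 in KO 5 to 0.33 in KO 3. On HFD the WT mean was 0.08 ± 0.46 (n = 8). HET mice were at -0.26 ± 0.28 (n = 11), with KO mice between them at -0.05 ± 0.49 (n = 9).

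In liver the chow KO group was lowest (-0.65 ± 0.48, n = 5), beside chow WT at -0.13 ± 0.61 (n = 5) and chow HET at -0.10 ± 0.34 (n = 8). HFD KO livers had the widest spread (0.00 ± 0.82, n = 9), from -1.69 in KO 2 to 0.80 in KO 5. HFD WT was at 0.05 ± 0.39 (n = 8) and HFD HET at -0.23 ± 0.26 (n = 11). Control and Alios livers lay between -0.04, the single Control KO mouse, and 0.43 ± 0.55 in Control HET (n = 4). The score averages genes that move oppositely, such as Fads2 and Thrsp in HFD liver, so a score near 0 can hold both.

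**Figure D5:**
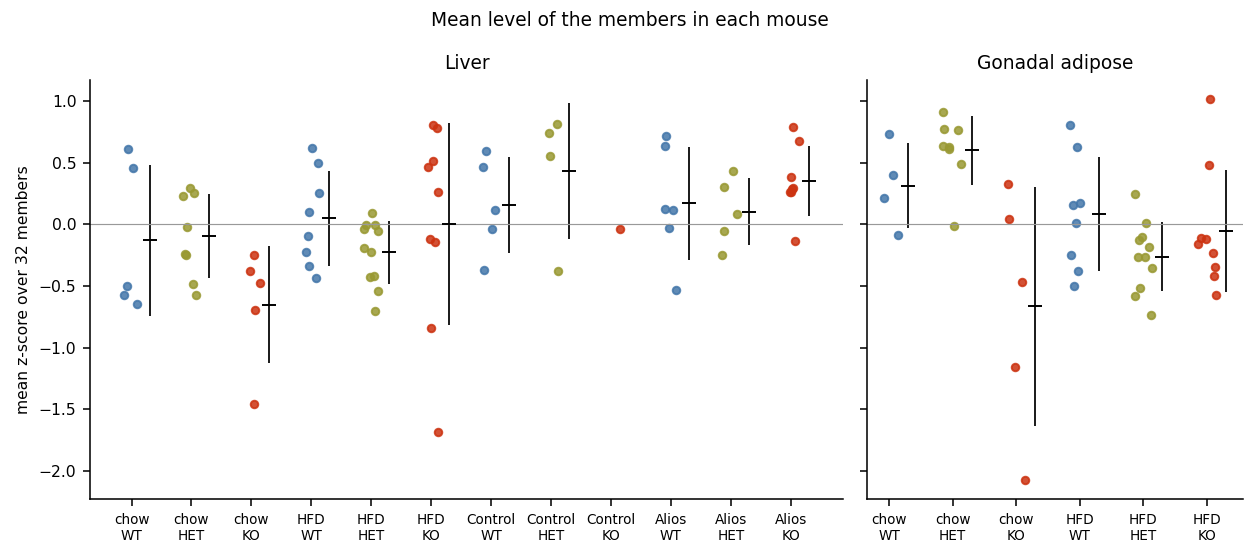
Mean z-score over the 32 tested members (vertical) in each mouse by diet and genotype, liver left and gonadal adipose tissue right; black marks give the mean and SD of groups of 2 or more. Chow KO adipose mice reach from -2.07 to 0.33, and HFD KO livers from -1.69 to 0.80.

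Another 44 genes of the pathway were counted beside the members: SREBP processing and nuclear partners, sugar and NADPH supply, isozymes of the members and acyl-CoA synthetases. In HET liver on HFD against chow, 4 of the 36 tested were higher and 5 lower, 25% called beside 14.2% of all genes. Insig2, which holds SREBP in the endoplasmic reticulum, rose by 1.23 (SE 0.22) and Insig1, its SREBP-induced relative, fell by 0.92 (SE 0.21). Mid1ip1, the paralogue of Thrsp, fell by 0.92 (SE 0.19), and pyruvate carboxylase (Pcx) rose by 0.60. In KO liver 4 of 36 were higher and 0 lower, 11.1% beside 10.7% of all genes, with Insig2 higher by 1.05. In WT liver 1 was higher, 2.78% beside 1.87%.

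In HET adipose tissue on HFD, 4 of 41 tested pathway genes were higher and 11 lower, 36.6% called beside 34.4% of all genes, with transketolase (Tkt) at -0.98 (SE 0.15) and Gpat4 at -0.69 (SE 0.13). In KO adipose tissue 9 were higher and 3 lower, 29.3% beside 35.5% of all genes. Insig1 rose by 1.69 (SE 0.30), Pgd, an NADPH source, rose by 1.01 (SE 0.18), and Usf1 fell by 0.78 (SE 0.13). For the difference of diet effects between KO and HET, 12 were higher and 3 lower in adipose tissue, 36.6% beside 26.5% of all genes, and 3 higher and 0 lower in liver, 8.33% beside 2.8%. Shares near those of all genes say nothing particular about the pathway. Insig1 was among both, at 1.60 (SE 0.37) in adipose tissue and 1.20 (SE 0.33) in liver. Between KO and WT, 2 were higher and 7 lower in chow adipose tissue, 22.0% beside 15% of all genes, and 0 were called in HFD adipose tissue (5 at an unadjusted p under 0.05) or in liver on chow (8) or HFD (4).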

How the data were processed

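RNA of liver and gonadal adipose tissue was sequenced from poly(A)-selected stranded libraries as single 50-base reads, per the labels' protocols. The deposited values are read counts per gene, made by the authors with STAR 2.5.1b and featureCounts 1.5 on GRCm38.p5, per the submitters' processing notes; whether counting used strand is not given in the sources used here. Of 121 labelled samples 120 had a column that could be matched by name, and 1 adipose column that matched no label was not used. Gene symbols were found for 25723 of 25759 identifiers.

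Counts were scaled by TMM and tested with edgeR 4.0.16 (quasi-likelihood, R 4.3.3) with Benjamini-Hochberg adjustment over all genes tested and a threshold of 0.05. Genes needed 10 counts in enough libraries and 15 in total (filterByExpr). One model was fitted to chow and HFD liver, one to Control and Alios liver and one to adipose tissue; the tissues were compared within mouse. Each log2 difference has its standard error (SE). RPKM used exon lengths of GENCODE M21. Printed CPM were scaled over all libraries of a tissue, and levels of the tissue comparison over both tissues of its mice. Mean z-scores are averages over members of log2 CPM (prior count 2), scaled over the libraries of a tissue.

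The members and lists were chosen with earlier results of these data known. Values by library are given for up to 6 called members of smallest adjusted p in a comparison, or up to 3 where none was called, and for further members named in the text after their values were seen; other pathway genes named are among the 3 called with the smallest adjusted p, except Insig1. Alternatives were DESeq2 1.42.0, other size factors, no filter, a replicate block, a fit of the compared groups alone and leaving out each library of groups of 5 or fewer; those leaving out libraries by marker content or the HET mouse with Pepd at the KO level, and the comparison of diet effects between KO and HET, were added after seeing the data. On simulated counts for KO against WT, the edgeR step recovered 91% of genes changed 2-fold in chow liver, 98% in HFD liver (11064 genes each) and 85% in HFD adipose tissue (14536 genes). The changed genes were drawn at random from all but the lowest mean levels, with the same change in every library of a group. These shares were thus not measured on the members, and they set no bound on changes in members left uncalled. No 2 libraries of a group agreed within sampling noise.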

Additional observations from a re-analysis of the deposited data

Results flagged for a closer look

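Among 154 groups of 4 to 10 libraries examined, 14 had a value far from the others. The cut-off gives about 1 in 20 only for independent, normally distributed values. CPM values can be skewed and the groups shared libraries, so that rate is no measure for the 14. In adipose tissue of HFD WT 6, the library with hepatocyte markers, Elovl5 (685 CPM), Lpin2 (147 CPM) and Mlxipl (276 CPM) stood above the other HFD WT mice. HFD KO 3, with 6264 CPM of hepatocyte markers, was highest for Elovl5 (146 CPM) and Acss2 (445 CPM). Scd2 was high in HFD WT 4 (1549 CPM), Acacb in chow WT 4 (164 CPM) and Agpat1 in chow WT 2 (197 CPM), the last holding 14414 CPM of epididymis markers. The mean z-score of chow HET 1 (-0.0153, in adipose tissue) was below its group.

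In liver, chow HET 4 was highest for Mlxipl (1440 CPM) and lowest for Fads2 (146 CPM), and chow HET 8 was highest for Scd2 (41.5 CPM) and Pnpla3 (69.6 CPM). Elovl6 in chow KO 3 (44.4 CPM) was below the other chow KO livers.

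Tested differences between groups included the KO effect on HFD against chow in adipose tissue, with 2 members called (Fasn at 1.90 and Scd2 at 1.70). The same effect in liver called 0. The diet effect in KO against HET mice, a comparison added after the single effects were seen, called 6 members in liver and 16 in adipose tissue. Of these calls, 0 in liver and 7 in adipose tissue held under every alternative run.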

How the results depend on the processing

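Of 113 calls of members, 57 held under every alternative run for them. The 57 include 24 of the 26 calls between liver and adipose tissue and 13 of the 16 for HFD in HET adipose tissue. Of the calls between KO and WT on chow, 0 of 4 in adipose tissue and 0 of 1 in liver held. For the adipose KO effect on HFD minus chow, 0 of 2 held. Of the recounts of called members, 184 stayed within 1.5 times the count reported and 80 did not. The 184 include every recount of 0 where 0 was reported, as between HET and WT mice. They are thus no measure of how well calls were kept. DESeq2 called 3 members for KO against WT in chow liver, 1 in HFD liver, 1 for the KO effect on HFD minus chow in liver and 4 in adipose tissue, and 5 for Alios against Control in HET liver. Without a filter, the adipose KO effect called 1 and Alios in HET liver 0. Fits of the compared groups alone called 0 for KO against WT in chow liver and chow adipose tissue, Alios in HET liver, HFD against chow in WT adipose tissue and the adipose KO effect, 2 and 5 for HFD against chow in WT and KO liver, and 5 in KO adipose tissue. Without libraries rich in muscle markers, HFD against chow called 2 in WT and 4 in KO liver, and the liver difference of diet effects 0. Without those rich in hepatocyte markers, HFD against chow called 0 in WT adipose tissue, the adipose KO effect 0 and the adipose difference of diet effects 10. Without those rich in epididymis markers the counts were 1 for KO against WT in chow adipose tissue, 0 for HFD against chow in WT and 0 for the KO effect; without chow KO libraries low in adipocyte markers they were 2 for KO against WT on chow, 3 for HFD against chow in KO, 0 for the KO effect and 8 for the difference of diet effects. The cause was not tested. Fewer libraries alone leave fewer degrees of freedom.

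Deviations of mice with the same replicate number in different groups had median correlations of -0.014, 0.017 and -0.014 in the 3 models. Single pairs ran from -0.37 to 0.53, -0.25 to 0.49 and -0.67 to 0.88. Not every pair was above 0.1, but so strict a rule could hardly show a pairing. The labels give each library of a tissue its own mouse number, so the samples were taken to share only a replicate number. The replicate block thus follows no factor that the labels name. With the replicate block, members called were 0 for KO against WT in chow liver, 2 and 6 for HFD against chow in WT and HET liver, 2 for the liver difference of diet effects, 0 for Alios in HET liver, 2 for KO against WT in chow adipose tissue, 0 for HFD against chow in WT adipose tissue and 0 for the adipose KO effect.

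Leaving out 1 library at a time gave 0 to 4 for KO against WT in chow liver, 1 to 5 and 4 to 15 for HFD against chow in WT and KO liver, 0 to 3 for the liver KO effect, 0 to 6 for the liver difference of diet effects, 0 to 1 for Alios in HET liver, 0 to 13 for KO against WT in chow adipose tissue, 0 to 3 and 6 to 12 for HFD against chow in WT and KO adipose tissue, 0 to 11 for the adipose KO effect and 10 to 18 for the adipose difference of diet effects. Of the single members, Elovl5 in HFD adipose tissue of HET against WT went from -0.70 to 0.0098 with DESeq2, and Lpin2 in HFD adipose tissue of KO against WT from -0.53 to 0.018 without libraries rich in hepatocyte markers; neither was called. Group means of the z-score moved by less than 1 SD with other size factors. Depth limits members of low counts: Mogat1, Scd2 and Lpin3 were at 0 in at least 1 liver library and Pnpla3 was as low as 1.16 CPM.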
